A study of Mus musculus with 4 samples.

Results

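The genes described here are ceramide and lipoxygenase genes linked to the skin barrier, and they were chosen by name. Probes annotated to Alox12b, Aloxe3, Abca12, Cers3, Cyp4f39, Sptlc3, Ugcg, Smpd1 or Alox8 were taken, and probes of a gene were averaged. Of these 9 genes, 8 had a named probe, with 13 probes in all, among 19532 named genes on the arrays; Cers3, a ceramide synthase, is named only. Skin of Tsk1/+ mice was set against a common cell-line reference, called UMR in the labels, on 4 two-colour arrays that form 1 group, numbered 1-1, 1-2, 2-1 and 2-2. Tsk1/+ mice carry a mutated fibrillin-1 allele in every cell and serve as a model of scleroderma. The labels give no age, sex, strain or skin site and leave unsaid whether separate animals were sampled; the p-values below therefore cover the spread between these 4 samples alone, which may be technical. No wild-type skin is part of these data, so the values say how Tsk1/+ skin compares with cultured cells and nothing about the effect of the mutation.

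The outer epidermis keeps water in by means of lipid sheets between its dead cells, and acylceramides, ceramides with a very long, omega-hydroxylated fatty acid that is esterified to linoleic acid, are built for this purpose. Keratinocytes of the granular layer make them, convert them to glucosylceramides and load them with sphingomyelin into lamellar bodies, whose content is secreted and turned back into ceramide outside the cell. The lipoxygenases 12R-LOX and eLOX-3 then oxidise the linoleate, a step needed to fix the lipid to the protein envelope of the cell. In humans, loss of ALOX12B, ALOXE3, ABCA12, CERS3 or CYP4F22, the counterpart of mouse Cyp4f39, causes ichthyosis.

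Aloxe3, Cyp4f39, Alox12b and Smpd1 were higher in Tsk1/+ skin than in the reference, by mean log2 ratios between 1.24 and 4.45, and no member was lower. Ugcg stood near 0 on all 4 arrays. Sptlc3, Abca12 and Alox8 did not pass, and each was listed at exactly 0 on at least 1 array. A log2 ratio is the logarithm of skin over reference, so that 1 is a doubling, and a gene passed where limma's adjusted p was below 0.05 and the mean ratio at least 1 in size. By this rule, 4 of the 8 members were higher, where 11.0% of all 19532 genes were, and 0 were lower, where 7.52% of all genes were. The median of the 8 members was 1.83, against 0.02 over all genes, with zeros counted as values. Ratios above 0 on all 4 arrays were found for 4 of the 8 members, the same ones that passed, and for 27.8% of all genes.

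Some properties of the arrays bear on these values. The log base is not given and was read as 2 from the values, and every fold stated here rests on that reading. Per the labels the Cy3 dye marked skin and Cy5 the reference, but no numerator is named, so the direction was read from 15 cornified envelope and late keratin genes, whose deposited medians were -5.25, -4.64, -4.63 and -5.73 on arrays 1-1, 1-2, 2-1 and 2-2, and from 10 skeletal muscle genes at -6.10, -5.62, -5.55 and -6.64. Both tissues belong to skin samples and not to ordinary cultured lines, so the signs were turned. The direction is likely, not stated. The members, chosen as genes of the skin barrier, are no independent support for it. Skin carried the same dye on every array, and a dye effect cannot be told apart from a difference between the samples. Between 21.4% and 29.1% of the probes of an array were listed at exactly 0, and of 874 named probes above a log2 ratio of 4 on at least 1 array, 239 (27.3%) stood at exactly 0 on another, against 0 of the 66 probes below -4. Among defining markers of outer keratinocytes, Krt10 and Lor averaged 5.80 ± 0.56 and 6.81 ± 0.71 (SD, n = 4), while Flg was listed at 0 on all 4 arrays and Krt2 on 3; 6 of 10 such markers were higher. Those 6 were among the genes from which the direction was read, so their sign was set by that choice. In whole skin, more keratinocytes and more RNA per keratinocyte cannot be told apart.

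**Figure D1:**
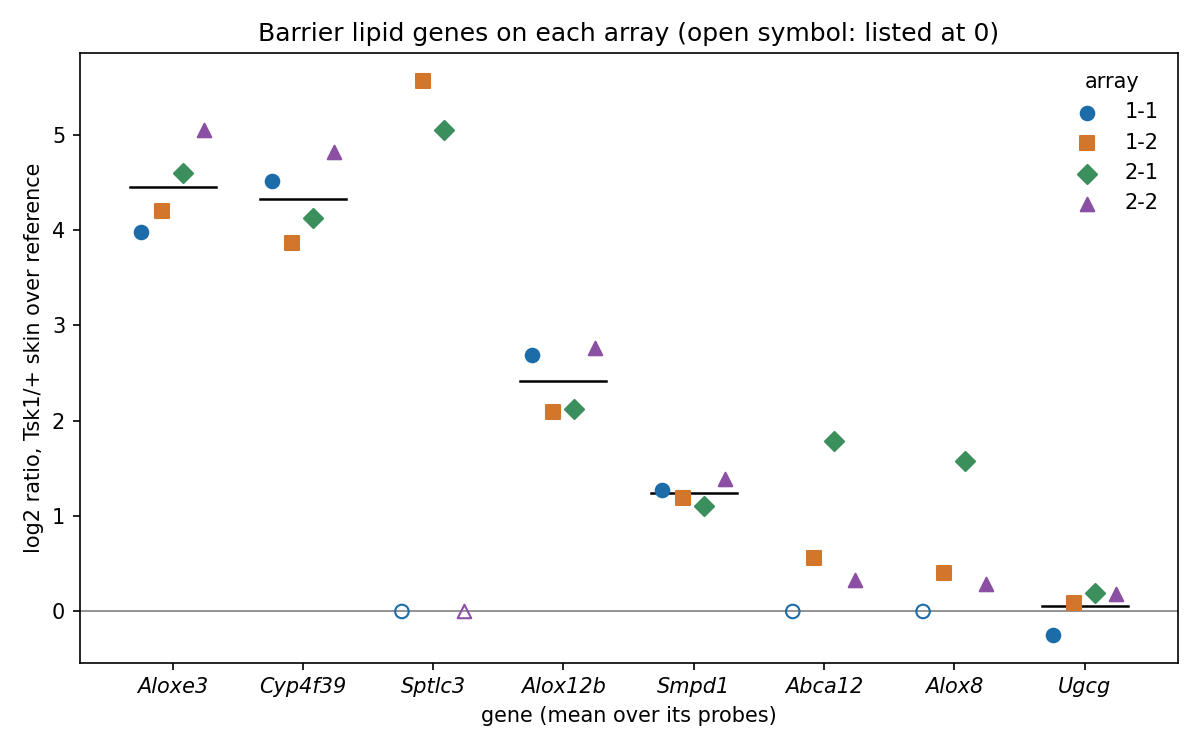
Log2 ratio of Tsk1/+ skin over the reference (vertical axis) for the 8 measured barrier lipid genes, with a symbol for each of the 4 arrays, open where the gene was listed at 0, and a line at the mean where no array was at 0. Aloxe3 and Cyp4f39 lie between 3.86 and 5.05 on every array, Ugcg lies around 0, and Sptlc3 is at 5.56 and 5.05 on 2 arrays and at 0 on the others.

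The members that passed are shown first by the sequence at their start sites, beside that of Ugcg, which did not pass. Whether these genes share regulation was not tested. The windows run from 250 bases before to 50 after the start site, in RefSeq's table for GRCm38.p6, which holds 8 of the 9 genes and is credited to RefSeq; Aloxe3 is not among them. They lie at chr11:69156822-69157121 (plus strand) for Alox12b, chr17:32452473-32452772 (plus strand) for Cyp4f39, chr7:105554110-105554409 (plus strand) for Smpd1 and chr4:59189300-59189599 (plus strand) for Ugcg. Capitals mark each match to GGGCGG, the GC box, read on both strands, the only searched motif found in these 4 windows.
Alox12b: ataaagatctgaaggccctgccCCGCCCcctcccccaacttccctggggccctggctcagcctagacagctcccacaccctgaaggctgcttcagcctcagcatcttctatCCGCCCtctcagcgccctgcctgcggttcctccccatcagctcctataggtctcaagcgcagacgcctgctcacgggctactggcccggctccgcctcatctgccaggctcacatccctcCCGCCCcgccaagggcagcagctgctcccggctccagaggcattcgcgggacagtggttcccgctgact
Cyp4f39: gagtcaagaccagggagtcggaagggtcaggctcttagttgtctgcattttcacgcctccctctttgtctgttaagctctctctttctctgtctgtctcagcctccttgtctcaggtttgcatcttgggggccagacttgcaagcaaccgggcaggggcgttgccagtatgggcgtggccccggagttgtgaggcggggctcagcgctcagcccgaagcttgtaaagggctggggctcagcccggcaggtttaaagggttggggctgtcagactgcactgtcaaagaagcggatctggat
Smpd1: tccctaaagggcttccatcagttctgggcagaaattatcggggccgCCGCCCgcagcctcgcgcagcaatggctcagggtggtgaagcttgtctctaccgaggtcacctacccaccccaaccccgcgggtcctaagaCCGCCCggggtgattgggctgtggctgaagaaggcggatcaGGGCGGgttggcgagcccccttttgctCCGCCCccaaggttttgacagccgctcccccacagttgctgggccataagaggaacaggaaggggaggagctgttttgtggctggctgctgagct
Ugcg: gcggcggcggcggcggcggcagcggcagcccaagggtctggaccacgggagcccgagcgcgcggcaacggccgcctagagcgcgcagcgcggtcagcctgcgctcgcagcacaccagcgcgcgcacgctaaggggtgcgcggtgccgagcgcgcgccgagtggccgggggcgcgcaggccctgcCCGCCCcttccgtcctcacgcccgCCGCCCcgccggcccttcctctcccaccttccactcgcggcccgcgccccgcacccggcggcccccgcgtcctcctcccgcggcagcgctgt
The GC box occurred 3 times in the Alox12b window, 4 times in that of Smpd1, 2 times in that of Ugcg and 1 time in that of Alox8. The Cyp4f39, Abca12, Cers3 and Sptlc3 windows held none. Of all 32851 windows of this length, 35.7% held the motif. The Sptlc3 window had 1 match to TTGCNNAA, a C/EBP motif found in 10.8% of windows. No member window matched TGANTCA (AP-1, 7.81% of windows), AACNGGTT (Grainyhead, 2.09%), TATAAA (a core promoter element, 13.6%) or the PPAR and RXR repeat (0.0396%); a missing match says only that these letters are not in the window. The GC box was thus present beside members that were higher, Alox12b and Smpd1, and a member near 0, Ugcg.

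Aloxe3 encodes eLOX-3, which converts the hydroperoxides made by 12R-LOX and acts after it. Its log2 ratio was 3.98, 4.20, 4.60 and 5.05 on arrays 1-1, 1-2, 2-1 and 2-2. All 4 arrays placed skin far above the reference, with array 2-2 highest and 1-1 lowest. The mean was 4.45 ± 0.47 (SD, n = 4), a 21.9-fold ratio with a limma adjusted p of 0.000759, and 98.6% of all genes had a lower mean. The arrays numbered 2-1 and 2-2 averaged 4.82, and those numbered 1-1 and 1-2 averaged 4.09, a difference of 0.73 (SE 0.22) that did not pass (limma adjusted p = 0.957).

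Alox12b encodes 12R-LOX, which starts the oxidation of the linoleate. As a mean of its 2 probes, its log2 ratio was 2.69, 2.10, 2.12 and 2.77 on arrays 1-1, 1-2, 2-1 and 2-2, so arrays 1-1 and 2-2 were the higher ones. The mean was 2.42 ± 0.36 (SD, n = 4), a 5.34-fold ratio with a limma adjusted p of 0.00151. Its probes, annotated to the same transcript, differed. The first stood at 1.28, 1.31, 1.10 and 1.39 and the second at 4.10, 2.88, 3.14 and 4.14 on the same 4 arrays. The second probe was above the first on every array, by 2.29 ± 0.60 (SD, n = 4), which is close to the mean ratio of the gene itself. The fold for Alox12b therefore depends on which probe is read, while both probes put skin above the reference on all 4 arrays.

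**Figure D2:**
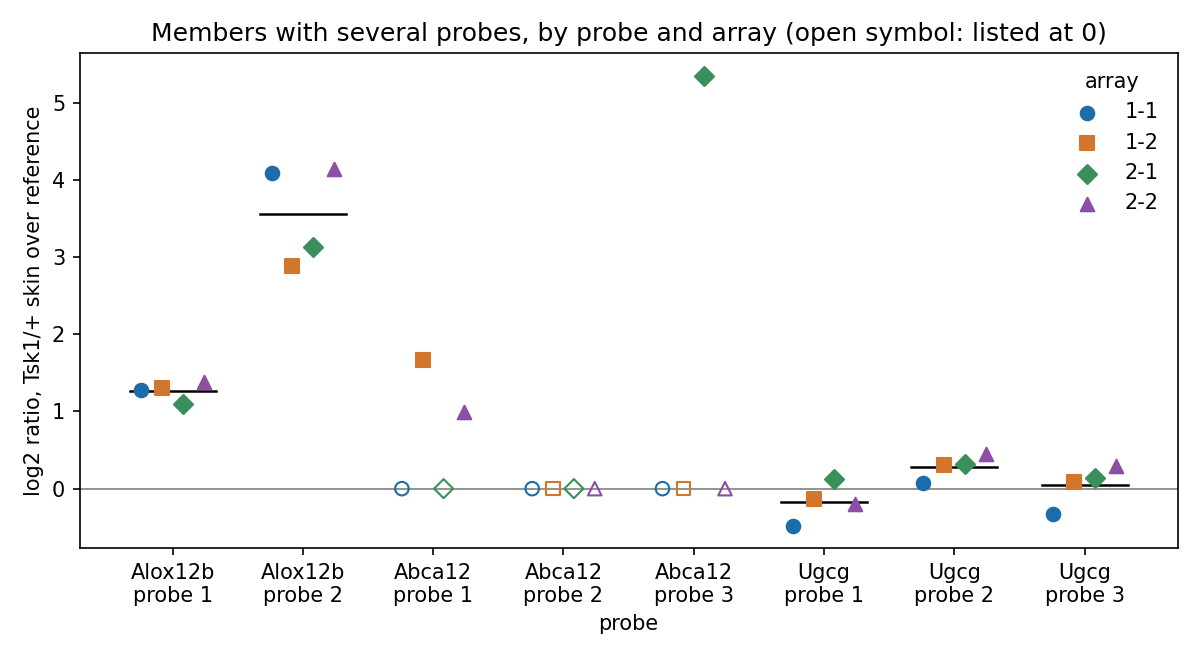
Log2 ratio of skin over reference (vertical axis) for each probe of the 3 members with several probes, a symbol per array, open where listed at 0, with a line at the mean where no array was at 0. The second Alox12b probe lies above the first on all 4 arrays, Abca12 has 1 high value, 5.35 on array 2-1, and the 3 Ugcg probes lie between -0.48 and 0.44.

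Alox8 encodes the 8S-lipoxygenase of mouse epidermis, whose human counterpart is ALOX15B. Arrays 1-2, 2-1 and 2-2 gave it 0.40, 1.58 and 0.29, and array 1-1 an exact 0. Only array 2-1 exceeded a doubling, and the gene did not pass (limma adjusted p = 0.247). Its values on arrays 1-2, 2-1 and 2-2 were repeated exactly on the array, with 1927, 83 and 288 probes in all on the same value. The values of Aloxe3, by comparison, were held by at most 4 probes of an array.

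The 3 lipoxygenase members are neighbours on chromosome 11, in the order Aloxe3, Alox12b, Alox8, with no protein-coding gene between them in the GRCm38.p6 annotation. Their ratios fell along that order on every array, although differences between probes of 1 gene were as large as those between these genes. On the side of Aloxe3 the next genes were Hes7, listed at 0 on 3 arrays, and Per1, a clock gene (1.04 ± 0.33, limma adjusted p = 0.0102), whose call was lost without array 1-1 or 1-2 (adjusted p = 0.0533 and 0.0612) and, for its mean of 0.93, without array 2-2. On the side of Alox8 followed Gucy2e, listed at 0 on 3 arrays, Cntrob (-0.52 ± 0.25) and Trappc1 (-0.49 ± 0.04), none past the minimum size. Among genes further out, Borcs6 was higher (1.98 ± 0.22, limma adjusted p = 0.000844). Aurkb (-3.06 ± 0.37, limma adjusted p = 0.00101) and Kcnab3 (-1.24 ± 0.32, limma adjusted p = 0.00579) were lower. Kcnab3 did not pass limma's treat against a log2 ratio of 1 (adjusted p = 0.57).

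**Figure D3:**
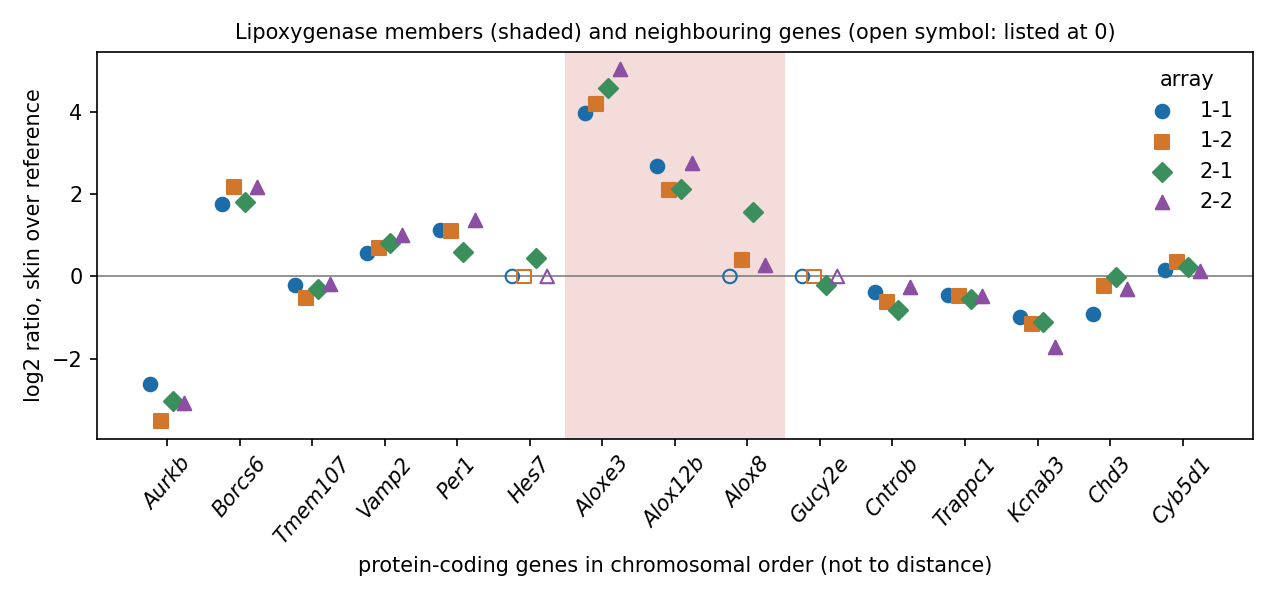
Log2 ratio of skin over reference (vertical axis) for 15 protein-coding genes in their order on chromosome 11 (horizontal axis, not to distance), with a symbol per array, open where listed at 0, and the 3 lipoxygenase members shaded. Aloxe3 and Alox12b have the highest means of the genes drawn, 4.45 and 2.42, and the genes next to the shaded block, Hes7 and Gucy2e, are at 0 on 3 arrays each.

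Among all 7 lipoxygenase genes measured, members included, 5 were higher and 0 lower, where 11.0% of all genes were higher and 7.52% lower. With 7 genes, 0 lower is not far from the share over all genes. The highest was Alox12e, an epidermal 12-lipoxygenase of mouse, at 6.23, 5.53, 5.56 and 6.85 on arrays 1-1, 1-2, 2-1 and 2-2 (6.04 ± 0.63, limma adjusted p = 0.000734), above Aloxe3 on every array. Alox5, the leukotriene-forming lipoxygenase of leukocytes, was at 3.95 ± 0.09, and 3 of 4 mast cell and 4 of 5 macrophage markers were higher beside it; their part in the value was not tested. Alox12 was higher in the test with all arrays (1.67 ± 0.68, adjusted p = 0.0195) and did not pass when array 1-2, 2-1 or 2-2 was dropped (adjusted p = 0.0936, 0.0537 and 0.0608) or with the median over probes (adjusted p = 0.165). Alox15 was listed at 0 on 3 arrays and at 0.44 on array 2-1.

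Of 13 measured lipoxygenases and partner enzymes outside the members, 9 were higher and 0 lower, with a median of 1.98. Ephx3, an epoxide hydrolase that acts on the products of the 12R-LOX pathway, stood at 5.33, 4.32, 4.32 and 5.56 on arrays 1-1, 1-2, 2-1 and 2-2. Tgm1, the transglutaminase that cross-links the envelope, was at 4.50 ± 0.30 (SD, n = 4; adjusted p = 0.000401). Both were highest on array 2-2, with array 1-1 next, as Cyp4f39 and Alox12b were. This is not particular to barrier genes, since the median of the 10 skeletal muscle genes did the same (6.10, 5.62, 5.55 and 6.64). Sdr9c7, a dehydrogenase of the same linoleate pathway, showed another order, at 1.19, 3.83, 3.67 and 1.42 on arrays 1-1, 1-2, 2-1 and 2-2. It passed with all arrays (limma adjusted p = 0.0456) and not when any 1 array was left out (adjusted p from 0.0685 to 0.155).

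Cyp4f39 encodes the cytochrome P450 that adds the omega-hydroxyl group to the very long acyl chain. It was at 4.51, 3.86, 4.13 and 4.81 on arrays 1-1, 1-2, 2-1 and 2-2, all far above the reference. The mean of 4.33 ± 0.42 (SD, n = 4) is a 20.1-fold ratio (limma adjusted p = 0.000672), and it did not differ from that of Aloxe3 beyond their spread (Aloxe3 minus Cyp4f39, 0.13 ± 0.45, higher on 3 of 4 arrays). Of 7 Cyp4f genes measured, 2 were higher, the member Cyp4f39 and Cyp4f18 (1.98 ± 0.23), where 11.0% of all genes were. The others lay between -0.30 and 0.79 as means, with Cyp4f14 and Cyp4f15 each listed at 0 on 2 arrays, and the family's median was 0.25.

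The chain that Cyp4f39 acts on is made by elongases, and of 14 measured genes of chain supply and acylceramide assembly 9 were higher and 0 lower, with a median of 1.72. Elovl4, which makes the very long chains of acylceramides, had 6.48, 7.38, 7.23 and 8.46 on arrays 1-1, 1-2, 2-1 and 2-2 and was the highest of the list on every array. Elovl1, which feeds it, was at 1.74 ± 0.21 and Abhd5, a lipid droplet protein that helps PNPLA1 assemble acylceramides, at 1.60 ± 0.18 (SD, n = 4; adjusted p = 0.00101 and 0.000884). Fa2h, a fatty acid 2-hydroxylase, had an exact 0 on array 2-2 beside 4.99, 4.52 and 5.49 on arrays 1-1, 1-2 and 2-1. With that 0 it did not pass (limma adjusted p = 0.0731); dropping array 2-2 gave an adjusted p of 0.00631, and dropping zeros gave 3.37e-05. It also passed with the 0 kept where the first or the second title number was a random block (adjusted p = 0.0361 and 0.0486). There the estimated correlation within blocks was negative (-0.31 and -0.26), which narrows the standard error of a mean. Slc27a4, a fatty acid transporter of the barrier, averaged 1.70 ± 0.56 (limma adjusted p = 0.0109) and did not pass once array 1-2, 2-1 or 2-2 was dropped (adjusted p = 0.0542, 0.0610 and 0.0583).

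Sptlc3 encodes a subunit of serine palmitoyltransferase, the enzyme that makes the sphingoid base. Arrays 1-2 and 2-1 gave it 5.56 and 5.05, while arrays 1-1 and 2-2 held an exact 0. Its only probe was thus either among the highest ratios of the array or at 0, and the gene did not pass with zeros as values (limma adjusted p = 0.229). Without exact zeros the mean of its 2 remaining arrays was 5.31 (adjusted p = 0.000101). It also passed when arrays sharing a first title number were averaged, each pair holding 1 zero and 1 high value (adjusted p = 0.0219). Arrays 1-1 and 2-2 had the largest shares of probes at 0 (29.1% and 28.0%, against 25.6% and 21.4% on arrays 1-2 and 2-1), and of the 874 probes named above 131 and 158 were at 0 on them, against 71 and 33; the part of this in the Sptlc3 values was not tested.

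Of 11 other measured genes of sphingoid base and ceramide synthesis, 3 were higher and 0 lower, with a median of 0.54. Cers4, a ceramide synthase of sebaceous gland and epidermis, was highest at 2.20, 2.82, 2.47 and 2.72 on arrays 1-1, 1-2, 2-1 and 2-2 (2.55 ± 0.28, limma adjusted p = 0.000807). Cers2, the broadly used synthase of very long ceramides, had the lowest mean (-0.94 ± 0.22) and did not reach the minimum size; without array 1-2 it did, at -1.01 (adjusted p = 0.0209), as the single lower gene of the list. Sptlc1, the partner of Sptlc3, stood at 1.04 ± 0.25, and without array 2-1 at 0.92. Degs2, which hydroxylates the base to phytosphingosine, was at 1.37, 0.39, 1.38 and 1.504 on arrays 1-1, 1-2, 2-1 and 2-2. Dropping array 1-1, 2-1 or 2-2 left it short of the test (adjusted p = 0.100, 0.109 and 0.0983). The count of 3 became 1 without array 2-1, and 5 where each gene was read from its probe with the largest mean.

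Ugcg encodes glucosylceramide synthase, which prepares ceramides for lamellar bodies. Its mean over 3 probes was -0.25, 0.09, 0.19 and 0.18 on arrays 1-1, 1-2, 2-1 and 2-2. Array 1-1 lay below 0 and the others just above. The mean was 0.05 ± 0.21 (SD, n = 4), a 1.04-fold ratio with a limma adjusted p of 0.696. The 3 probes lay between -0.48 and 0.44 on every array. Ugcg is used by most cell types, and its value says that skin and reference gave nearly equal signal for it, not that it was low in skin.

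Smpd1 encodes acid sphingomyelinase, which releases ceramide from the sphingomyelin of lamellar bodies. Its log2 ratio was 1.28, 1.19, 1.10 and 1.39 on arrays 1-1, 1-2, 2-1 and 2-2, the narrowest spread of the members. The mean of 1.24 ± 0.12 (SD, n = 4) is a 2.36-fold ratio (limma adjusted p = 0.000724). It lies close to the minimum size, and against a ratio of 1 the treat test of limma gave an adjusted p of 0.0736. As a mean of its 2 probes, Alox12b lay above Smpd1 on all 4 arrays (by 1.18 ± 0.25). The first Alox12b probe alone, at 1.28, 1.31, 1.10 and 1.39, was close to Smpd1 and not above it on every array.

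Of 17 other measured genes that interconvert ceramide, glucosylceramide and sphingomyelin, 8 were higher and 0 lower, with a median of 0.63. Acer1, the alkaline ceramidase of differentiated keratinocytes, was at 5.65, 4.73, 4.74 and 6.23 on arrays 1-1, 1-2, 2-1 and 2-2 (5.34 ± 0.73, limma adjusted p = 0.00127). Acer2, an alkaline ceramidase of the Golgi, was at 3.04 ± 0.29 and Acer3 at 0.49 ± 0.14 (SD, n = 4). Psap, the precursor of saposins that help lysosomal lipid hydrolases, was at 1.76 ± 0.23 (adjusted p = 0.00121), and Asah1, acid ceramidase, at 0.25 ± 0.11. Smpd3, the neutral sphingomyelinase 2, averaged 2.04 ± 0.23, and Smpd4 had the lowest mean of the list (-0.59 ± 0.18). Of all 7 measured genes with symbols starting in Smpd, the member Smpd1 included, 3 were higher and 1 lower. Over all genes, 11.0% were higher and 7.52% lower. The lower gene among those starting in Smpd was Smpdl3b, outside the list (-1.39 ± 0.26, limma adjusted p = 0.00252). Sphk1 and Sphk2, kinases that turn sphingosine into sphingosine 1-phosphate, were both higher, at 2.34 ± 0.13 and 1.85 ± 0.11 (adjusted p = 0.000339 and 0.000376).

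Abca12 encodes the transporter that loads glucosylceramide into lamellar bodies. Its gene mean was 0.56, 1.78 and 0.33 on arrays 1-2, 2-1 and 2-2 and an exact 0 on array 1-1, and it did not pass (limma adjusted p = 0.231). The values come from different probes. The first probe gave 1.67 on array 1-2, 1.00 on array 2-2 and 0 elsewhere. The second was at 0 throughout, and the third gave 5.35 on array 2-1 and 0 elsewhere. Without exact zeros the gene mean was 2.67 (adjusted p = 0.0476), from the first probe on 2 arrays and the third on 1. The values of the first probe were shared with 89 and 319 probes of arrays 1-2 and 2-2 in all, and when such repeated values were left out too, only 1 array remained and no fit was made.

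Of 11 other A-class transporters, 2 were higher and 0 lower, with a median of 0.33. This is not far from the shares over all genes (11.0% higher and 7.52% lower). Abca8a was highest, at 5.51, 5.98, 5.10 and 5.09 on arrays 1-1, 1-2, 2-1 and 2-2 (5.42 ± 0.42, limma adjusted p = 0.000491), and Abca1, the cholesterol exporter, was at 1.94 ± 0.27 (adjusted p = 0.00131). Abca13 had the lowest mean, with -0.62, 0.01 and 0.02 on arrays 1-1, 1-2 and 2-1 and an exact 0 on array 2-2. The count became 4 without array 1-1, and likewise where each gene was read from its probe with the largest mean.

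Of 12 measured transcription factors known to act on barrier genes, 10 were higher and 0 lower, with a median of 2.71. Zfp750 stood at 6.31, 6.45, 6.88 and 5.95 on arrays 1-1, 1-2, 2-1 and 2-2, and Grhl1 at 6.03, 5.54, 5.85 and 5.21; both are epidermal differentiation factors. Klf4, a barrier regulator, was at 3.31 ± 0.26, and Ppara, a nuclear receptor for fatty acids, at 2.35 ± 0.34 (adjusted p = 0.000524 and 0.00138). Ppard, another such receptor, was at 0.02 ± 0.43 and did not pass. Ovol1 was at 1.24, 3.90, 4.08 and 3.03 on arrays 1-1, 1-2, 2-1 and 2-2, and fell short once array 1-2, 2-1 or 2-2 was dropped (adjusted p = 0.0971, 0.0889 and 0.0906). Trp63, which encodes p63, was at 2.33 ± 0.54 with probe means from 0.11 to 6.58, and lost its call with the median over probes (adjusted p = 0.0937).

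**Figure D4:**
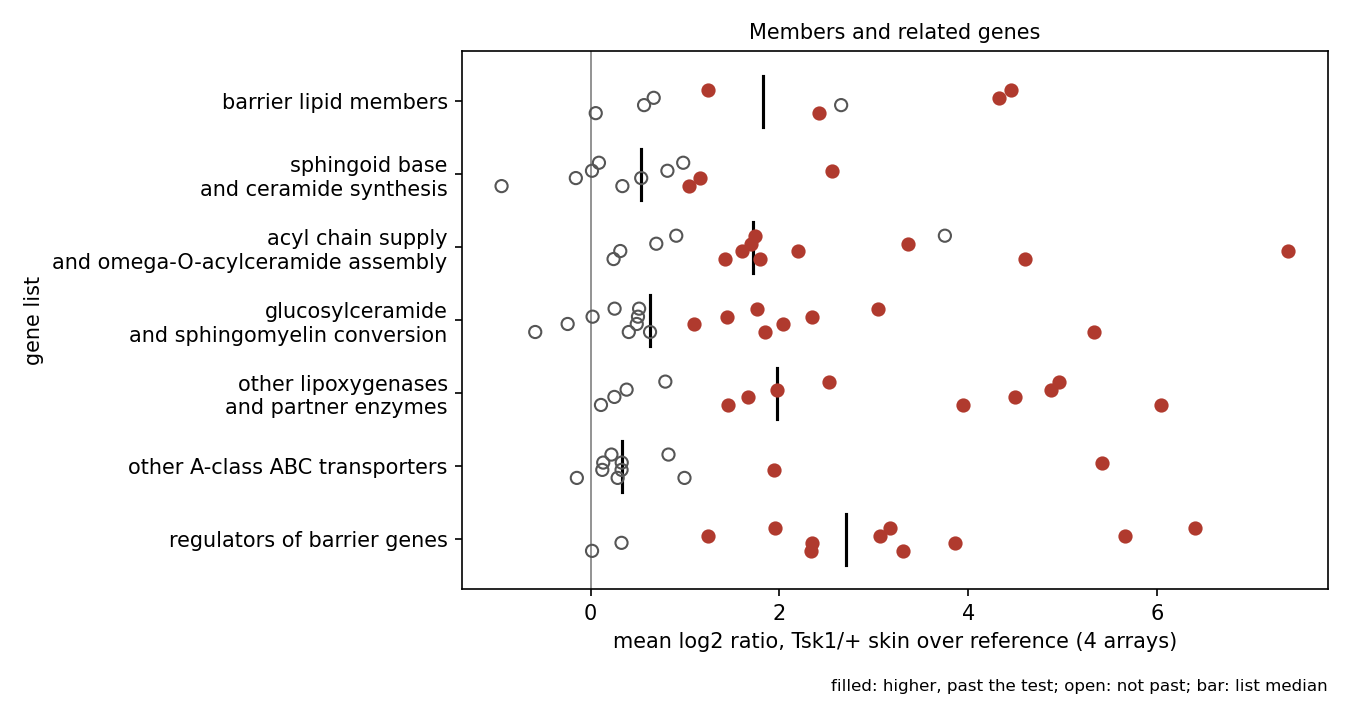
Mean log2 ratio of skin over reference over 4 arrays (horizontal axis) for the 8 measured members and 6 lists of related genes, a point per gene, filled where higher and past the test, with a bar at each list's median. Filled points number 4 of 8 members and 41 of 78 related genes, and no gene of these lists was lower past the test.

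Over the 6 lists, 41 of 78 related genes were higher and 0 lower, where 11.0% of all 19532 genes were higher and 7.52% lower. The lists held no member, and they were drawn up with earlier results of these data known. Of 10 suprabasal keratinocyte markers, 6 were higher and 0 lower, with a median of 5.20, and the 4 that did not pass (Flg, Krt2, Dsg1a and Dsc1) each had an exact 0 on at least 1 array. The 6 that were higher (Krt1, Krt10, Lor, Ivl, Sbsn and Krtdap) were also among the genes from which the direction was read. Their sign was therefore set by that choice and is no separate result. Of 8 basal keratinocyte markers, 7 were higher and 0 lower, with a median of 3.52. The sebocyte markers had 1 of 6 higher and 1 lower (median 1.55), with 4 of 6 listed at 0 on an array. How far each cell type contributes to the members' ratios was not tested.

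**Figure D5:**
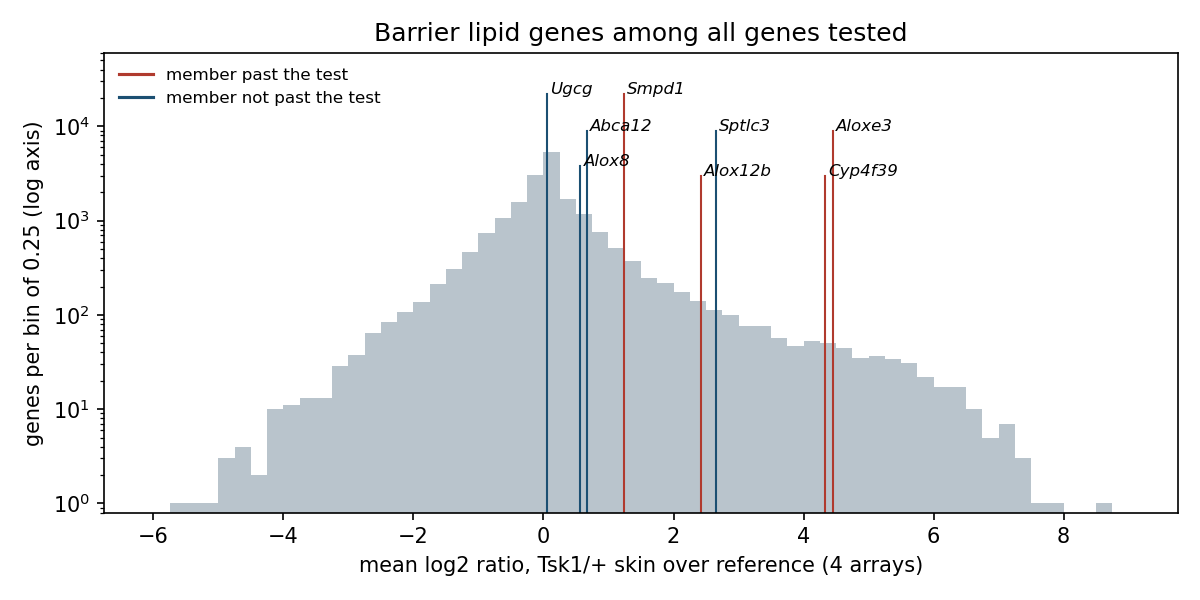
Number of genes (vertical axis, logarithmic) per bin of 0.25 of the mean log2 ratio of skin over reference (horizontal axis) for 19532 genes, with lines at the means of the 8 members, zeros counted as values. Aloxe3 and Cyp4f39 lie above 98.6% and 98.4% of genes, and Ugcg lies at 0.05.

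In order of their means the members ran from Aloxe3 and Cyp4f39 through Sptlc3, Alox12b, Smpd1, Abca12 and Alox8 to Ugcg. Among the members with no zero, Cyp4f39 lay above Alox12b, Alox12b above Smpd1 and Smpd1 above Ugcg on all 4 arrays, while Aloxe3 and Cyp4f39 changed places on array 1-1. The place of Alox12b above Smpd1 held for the mean of its probes and not for its first probe alone. Sptlc3 kept its place against its neighbours in this order, Cyp4f39 and Alox12b, on 2 of 4 arrays each. Abca12 and Alox8 differed by 0.10 ± 0.10, both with array 1-1 at 0 and array 2-1 highest. On each array the median of the members was 0.64, 1.64, 1.95 and 0.86 (arrays 1-1, 1-2, 2-1 and 2-2), with 3 members listed at 0 on array 1-1 and 1 on array 2-2. The 5 members with no zero differed in their order of arrays. Alox12b, Cyp4f39 and Smpd1 were highest on array 2-2, with array 1-1 next, as the median of the skeletal muscle genes was. Aloxe3 and Ugcg were lowest on array 1-1.

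No member passed the test between title numbers. Arrays 2-1 and 2-2 minus arrays 1-1 and 1-2 gave differences from -0.26 for Sptlc3 to 0.78 for Abca12, and limma called 0 of 8 members (0 also at an unadjusted p below 0.05) and 0.00% of all genes, where 782 of 19532 had an unadjusted p below 0.05. Arrays 1-2 and 2-2 minus arrays 1-1 and 2-1 gave differences from -0.45 for Abca12 to 0.34 for Aloxe3, with 0 of 8 members called, 0 also unadjusted, and 0.00512% of all genes (968 genes unadjusted). What the title numbers stand for is not given in the labels, and with 2 arrays on each side such differences were only detectable if large.

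The genes whose ratios lay closest to those of Alox12b over the 4 arrays, by root mean square difference among 13635 genes with no zero, were Rasl10a, Cacna1s and Serinc2 (0.126, 0.126 and 0.131). For Aloxe3 they were Esam, Des and Lad1 (0.157, 0.176 and 0.209), and for Abca12 Micalcl, Glrx5 and Ccl20 (0.183, 0.256 and 0.257), where its value on array 1-1 was a listed 0. Cacna1s and Des are muscle genes and Esam is an endothelial one, and the likeness is one of ratios over 4 arrays of 1 group only.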

How the data were processed

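Per the labels, 200 ng of total RNA of Tsk1/+ skin was amplified and labelled (Cy3) and hybridised with a Cy5-labelled reference. The deposited values are log2 ratios of the 2 channels; how background was corrected and values normalized, the log base and the direction: not given in the sources used here. Log base 2 was read from the spacing of repeated values: of 3120 pairs of common values, 21 lay as far apart as a 2-fold ratio and its inverse (tolerance 0.001) on the log2 scale, 2 on the natural log and 4 on the log10 scale (for 1.5-fold 15, 2 and 3; for 3-fold, which did not separate the bases, 2, 3 and 4). Signs were turned.

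Of 41174 probes, 32664 have 1 gene symbol in the platform annotation (32524 matched to GRCm38.p6 by Entrez ID), 45 several and 8465 are not named here; probes of a gene were averaged, exact zeros kept. limma 3.58.1 in R 4.3.3 (lmFit, eBayes, mean against 0, two-sided, Benjamini-Hochberg over all 19532 genes with values on at least 3 arrays) was tested on simulated data first. Splits by title number used the same tool. The number of arrays limits the precision. Alternatives left out arrays, zeros or values shared by 50 or more probes, and changed probe summary, normalization, blocking and test.

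Text names all members, genes of 6 related lists (highest, lowest, and pathway steps chosen after their values were seen), neighbouring genes and, by rule, the 3 most like genes of Alox12b, Aloxe3 and Abca12. Members, lists and alternatives were chosen with earlier results of these data known. Plots were made in Python 3.11.15 (matplotlib 3.10.9).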

Additional observations from a re-analysis of the deposited data

Results flagged for a closer look

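The third Abca12 probe gave 5.354 on array 2-1 and an exact 0 on the other arrays, so that 1 array lay apart from the others by the whole range. Of 41 sets of 4 array values, it was the only set in which 1 array stood apart by Dixon's ratio. The sets were 13 probes, 8 gene means and 20 list medians, and the limit was the 95% critical value for 4 samples. Chance marks about 1 set in 20 where values are continuous and sets independent, but these sets share probes and genes. With the other arrays all at exactly 0, the ratio is 1 at any other value on array 2-1. The flag therefore follows from the zeros. The other Abca12 probes were at 0 on array 2-1.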

How the results depend on the processing

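Alox12b, Aloxe3, Cyp4f39 and Smpd1 passed with each array left out in turn, with means from 2.30 to 2.52, 4.26 to 4.61, 4.17 to 4.48 and 1.19 to 1.28, and in the 11 other settings, except that Smpd1 did not pass limma's treat against a log2 ratio of 1 (adjusted p = 0.0736). With treat, 1338 genes were higher and 694 lower in all, because the test asks for more than the minimum size. Sptlc3 passed without exact zeros (5.31, adjusted p = 0.000101), without zeros and repeated values (5.31, adjusted p = 2.41e-06) and after averaging the arrays that share a first title number (2.65, adjusted p = 0.0219), and Abca12 without exact zeros (2.67, adjusted p = 0.0476), so members past the test numbered 6 without zeros and 5 without zeros and repeated values or with averaged arrays, against 4. Read from its probe with the largest mean, Alox12b was at 3.56. Abca12, Sptlc3 and Alox8 dropped out where genes with a zero were left out. By title number, no alternative called a member. Pairing the arrays by the other title number, as a term in each split, called 0 of 8 members (lowest adjusted p = 0.968 and 0.941). As a random block in the test of skin over reference, either title number changed 1 call among the members, related and neighbouring genes, that of Fa2h (adjusted p = 0.0361 and 0.0486). The estimated correlations within blocks were negative (-0.31 and -0.26), which narrows the standard error of a mean. The small number of arrays limits all of these. Exact zeros limit Sptlc3, and exact zeros and repeated values limit Abca12 and Alox8.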

Other observations

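Among 7 measured hair follicle markers, which no comparison above uses, Krt71 and Krt27, keratins of the inner root sheath, were singled out after their values were seen. Krt71 was at 6.21, 1.11, 1.58 and 0.69 on arrays 1-1, 1-2, 2-1 and 2-2. Krt27 gave 5.01 on array 1-1, 0.29 on array 1-2 and an exact 0 on the other arrays. Both were far higher on array 1-1 than elsewhere, while Krt25, Krt31 and Tchh were at 0 on array 1-1. The remaining markers were not highest on that array either: Lhx2 was at 3.42, 3.62, 3.81 and 3.48 and Msx2 at 0.60, 1.00, 1.17 and 0.58 (arrays 1-1, 1-2, 2-1 and 2-2). Neither Krt71 nor Krt27 passed the test, and the part of hair follicle content in the members' ratios was not tested.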
